A study of Mus musculus with 11 samples.

Results

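Chromatin that was accessible in 4 lymphoid cell types of the mouse was examined in 2946 genomic intervals centred away from annotated start sites. Accessibility was read by ATAC-seq, which uses a transposase to insert adapters into open DNA, and the peaks were merged across 9 libraries wherever they overlapped by at least 1 bp, which gave 71400 intervals. An interval was kept when a peak of every library overlapped it and when its midpoint lay more than 1 kb from every annotated transcription start site of the mm10 genome. The first condition left 9464 intervals and the second left the 2946, called constitutive distal intervals here, or 5.49% of all 53675 distal intervals. The members were thus chosen by the presence of a peak in each library and by position, so openness in all libraries is how the intervals were chosen and is not a result. A peak had to pass the caller's lowest score in every library, so the rule also favoured strong peaks over weak ones. It did not use how the members rank among each other, where beyond 1 kb they lie or which sequence they hold, and these are described below.

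The libraries came from C57BL/6 mice, according to the labels, and the study's animals were 4 to 8 weeks old. The thymus gave CD4SP thymocytes (2 libraries), which are conventional T cells that have kept CD4, and NKT thymocytes (2 libraries), innate-like T cells stained and enriched with CD1d tetramers. The bone marrow gave the common lymphoid precursor CLP (3 libraries), sorted as lineage-negative IL-7Rα+ cells with intermediate cKit and Sca-1 and high Flt3, and the innate lymphoid precursor ILCP (2 libraries), sorted as lineage-negative IL-7Rα+ α4β7+ eGFP+ cells. None of the 9 libraries carried a treatment, and the ILCP gate rests on an eGFP reporter. The 1 eGFP line among the strains in the study's methods is Zbtb16-IRESGFPcre, which carries a reporter and Cre at Zbtb16. The labels give the ILCP donors only as C57BL/6, so a difference in genotype from the other groups cannot be told apart from cell type. NKT and ILCP express PLZF, the factor encoded by Zbtb16, and CD4SP and CLP served as their controls within the same organ. Cell type, tissue and any difference in handling between organs cannot be told apart in a comparison of thymus with marrow.

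Distal accessible chromatin marks enhancers, which carry binding sites of transcription factors and act on promoters over a distance, and insulators, where CTCF halts the cohesin ring that extrudes chromatin loops. Most enhancers are accessible in few cell types, whereas CTCF sites and CpG islands, stretches rich in unmethylated CG dinucleotides, are known to be accessible in many. In lymphocytes, Runx, ETS, TCF/LEF, GATA and E-box factors are the main classes of protein that occupy enhancers. PU.1, an ETS factor of early progenitors and myeloid cells, is lost as T cells commit.

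The labelled cell types were checked by peaks over marker genes. The start sites of Cd3e, a T cell receptor chain, and of Cd4 had a peak in all 4 thymic libraries and in no marrow library. The start site of Flt3, the receptor that defines CLP, had a peak in all 3 CLP and both ILCP libraries and in none from thymus. The start site of Zbtb16 had a peak in both NKT and both ILCP libraries, in 1 of the 3 CLP libraries and in neither CD4SP library. Over gene bodies these 3 markers separated the cell types less. Cd4 also had a peak there in both ILCP libraries, Flt3 in all 9 libraries, and Zbtb16 in both CD4SP and 2 of the 3 CLP libraries. Other markers did not separate the cell types. The start sites of Lck, listed for the T cells, and of Id2, listed for ILCP, had a peak in all 9 libraries, and that of Il7r, listed for the precursors, had one in all 4 thymic, all 3 CLP and 1 of the 2 ILCP libraries. The start site of Kit had one in all 3 CLP, both ILCP and 1 NKT library. Markers of other cells were seen in places. Csf1r of myeloid cells had a peak in the gene body in all 3 CLP libraries, Gata1 of erythroid cells had one at its start in both CD4SP and 1 NKT library, and Ncr1 of natural killer cells had one in both ILCP libraries. The part of such cells in the results was not tested. The number of peaks ran from 19343 in CLP replicate 1 to 41535 in CLP replicate 2, and the depth of each library is not in the files, although the study's methods state a range of reads that holds for the libraries together. The constitutive distal intervals held 7.33% to 16.2% of a library's peaks.

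Sequences are given first for the CTCF core and then for members that carried words of the lymphoid factors. Neither kind of match shows that a factor was bound or that the interval acts as an insulator or enhancer. They are from the GRCm38.p6 (mm10) assembly of RefSeq. Each of the first 3 shows the core with 20 bases on either side, read 5′ to 3′ along the strand that carries it. Capitals mark the 12 positions of the core (CCA, 2 free positions, AG, 2 free positions, GGC). The Cct5 interval lies in an intron of Cmbl, the Acss1 interval is intergenic and both ranked higher in marrow, whereas the Gm26069 interval in an intron of Adamtsl1 was among the 5 weakest of all.

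Cct5, chr15:31586679-31586730, minus strand: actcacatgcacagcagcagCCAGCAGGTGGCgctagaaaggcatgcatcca
Acss1, chr2:150675122-150675173, plus strand: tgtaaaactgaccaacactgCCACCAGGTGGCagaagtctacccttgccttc
Gm26069, chr4:85801977-85802028, minus strand: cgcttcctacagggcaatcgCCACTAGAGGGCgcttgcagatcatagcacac

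The next 6 sequences are windows of 300 bp centred on the stretch covered by the most libraries, on the plus strand. They were chosen after their values were seen, as members with large differences between cell types or in an antigen receptor locus. In the Trac window, downstream of the constant exons of the T cell receptor α chain, capitals mark the CRE word TGACGTCA, the TCF/LEF word TTCAAAG (here as its complement) and 2 Runx words (complements of TGCGGT and TGTGGT). The TCRα enhancer lies downstream of these exons and is known for sites of these 3 kinds. In the Tnfrsf1b window, in an intron of the gene for TNF receptor 2, capitals mark 2 Runx words. In the Gm26026 window, which is intergenic, they mark 1 TCF/LEF and 1 Runx word. In the Gm44275 window, in an intron of Gm36640, they mark the PU.1 word GAGGAAGT (as its complement). This window also holds the TCF/LEF word (as its complement) and a Runx word, both in lower case. In the Poc1b window, in an intron of that centriole gene, they mark 4 E-boxes (CAGCTG or CAGGTG, on either strand). In the Gm48804 window, in an intron of Srgap1, they mark the ETS word ACAGGAAG (as its complement) and 1 Runx word. Words of other kinds in the same windows are in lower case.

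Trac, chr14:54227454-54227753: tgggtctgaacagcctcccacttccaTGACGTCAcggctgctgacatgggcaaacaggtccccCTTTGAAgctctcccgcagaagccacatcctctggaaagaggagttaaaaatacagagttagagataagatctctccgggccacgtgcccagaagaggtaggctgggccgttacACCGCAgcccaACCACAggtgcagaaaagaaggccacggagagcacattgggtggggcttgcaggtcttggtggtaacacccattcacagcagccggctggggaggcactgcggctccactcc
Tnfrsf1b, chr4:145236028-145236327: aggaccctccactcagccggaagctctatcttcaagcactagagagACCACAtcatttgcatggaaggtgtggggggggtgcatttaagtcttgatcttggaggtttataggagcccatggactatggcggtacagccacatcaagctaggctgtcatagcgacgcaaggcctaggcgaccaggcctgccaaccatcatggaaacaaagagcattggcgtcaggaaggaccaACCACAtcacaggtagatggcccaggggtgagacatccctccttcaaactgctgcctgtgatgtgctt
Gm26026, chr19:14695371-14695670: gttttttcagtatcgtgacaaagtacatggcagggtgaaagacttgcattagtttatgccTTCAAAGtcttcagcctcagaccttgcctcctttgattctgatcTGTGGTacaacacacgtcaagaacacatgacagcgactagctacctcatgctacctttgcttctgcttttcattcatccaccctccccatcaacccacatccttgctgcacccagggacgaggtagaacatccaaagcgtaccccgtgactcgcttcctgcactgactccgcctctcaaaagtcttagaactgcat
Gm44275, chr6:135323510-135323809: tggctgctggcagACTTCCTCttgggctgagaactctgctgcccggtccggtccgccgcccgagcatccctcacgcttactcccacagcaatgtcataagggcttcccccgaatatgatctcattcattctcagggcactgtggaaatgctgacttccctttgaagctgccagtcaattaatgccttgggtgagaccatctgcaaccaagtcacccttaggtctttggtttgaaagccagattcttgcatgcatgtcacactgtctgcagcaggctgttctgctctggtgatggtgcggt
Poc1b, chr10:99132184-99132483: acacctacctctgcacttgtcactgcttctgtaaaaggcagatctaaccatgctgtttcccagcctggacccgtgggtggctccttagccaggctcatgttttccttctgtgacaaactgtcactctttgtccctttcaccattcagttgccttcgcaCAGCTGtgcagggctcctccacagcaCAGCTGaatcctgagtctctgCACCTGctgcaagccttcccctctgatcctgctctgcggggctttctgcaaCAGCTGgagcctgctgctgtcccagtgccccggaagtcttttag
Gm48804, chr10:121886842-121887141: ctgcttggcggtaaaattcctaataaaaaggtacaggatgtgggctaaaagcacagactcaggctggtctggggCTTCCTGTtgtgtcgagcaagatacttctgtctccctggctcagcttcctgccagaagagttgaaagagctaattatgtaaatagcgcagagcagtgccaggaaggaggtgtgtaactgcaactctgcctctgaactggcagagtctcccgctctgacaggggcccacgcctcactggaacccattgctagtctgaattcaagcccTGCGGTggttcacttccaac

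Openness in all libraries was rare among distal intervals and common at start sites. Of the distal intervals, 21.1% were open in a single library, 26.6% in exactly 2 and 3.33% in exactly 8, against the 5.49% open in all 9. Of the intervals with their midpoint within 1 kb of a start site, 36.8% were open in all 9. The rule turned strongly on CLP replicate 1, the library with the fewest peaks. Of the 1787 distal intervals open in 8 libraries, 1062 (59.4%) lacked a peak in that library, whereas 7 lacked one in CLP replicate 2 and 8 in CLP replicate 3.

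**Figure D1:**
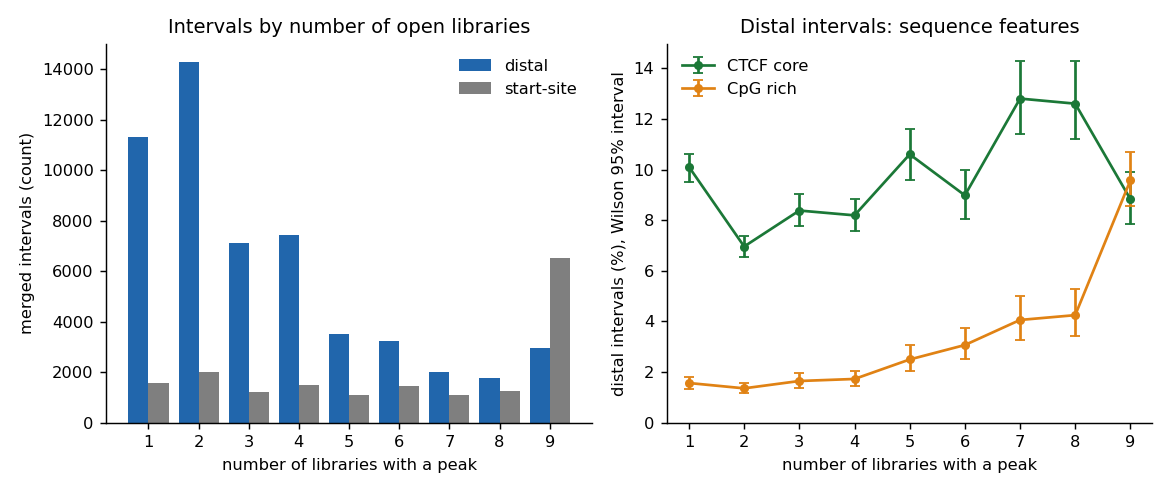
Left, number of merged intervals (vertical axis) by the number of libraries with a peak in them (horizontal axis), for distal and start-site intervals. Right, percent of distal intervals whose 300 bp window held the CTCF core or was CpG rich, with Wilson 95% intervals. Distal intervals were most often open in 2 libraries (26.6%) or in 1 (21.1%), and the CpG-rich share was 1.57% at 1 library and 9.57% at 9 while the CTCF share was 8.83% at 9.

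The constitutive distal intervals were wider than other distal intervals, whose median width was 936 bp, and lay at similar distances from start sites. Among distal intervals the median width rose as more libraries were joined, from 690 bp at 1 library to 1269 bp at 8. The width of members had a median of 1492 bp, with a middle 80% from 1108 to 2784 bp. In 2867 of them some stretch was covered by peaks of all 9 libraries, with a median of 690 bp. The other 79 were joined from peaks of which no base was common to all. The midpoint lay a median of 10640 bp from the nearest start site, against 11270 bp in other distal intervals. By place, 51.0% lay in an intron, 43.2% between genes and 5.8% in an exon, close to the 54.3%, 40.6% and 5.1% of the 50729 distal intervals open in 1 to 8 libraries. A start site fell inside 98 of them, since the rule measured from the midpoint, and 2699 had both edges more than 1 kb from every start site.

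At the limit of the rule, the members just outside 1 kb had their midpoints 1002 bp from a start site of Nfkb1, 1003 bp from one of Rab23 and 1006 bp from one of Gm19280. The intervals just inside it, which were not kept, lay 997 bp from Gm25888, 995 bp from Fam49a and 994 bp from Cd69. The 5 widest members were a pair in Sfi1, a gene with many copies (23053 and 20880 bp), and those at Mroh2a (16352 bp), Fosb (10720 bp) and Pde4b (8533 bp). In 7 members, the pair at Sfi1 and those nearest to Dclre1a, Satl1, Gm10718, Gm9075 and Sos1, at least 50% of the 50 bp words of the window, the length of a read, occurred more than once in the genome, so that reads there could have come from elsewhere. None matched mitochondrial DNA over 100 bp or more.

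Members were spread over all chromosomes but Y. Their share of the distal intervals was lowest on chromosome 11, at 3.01%, and highest on chromosome 7, at 7.05%. The gap from one member to the next had a median of 270620.5 bp, and 21.9% of gaps were under 50 kb. A start-site interval open in all 9 libraries lay within 50 kb of 45.2% of members.

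CpG-rich sequence was more frequent in the constitutive distal intervals than in the other distal ones pooled. A window was called CpG rich when its GC content was over 50% and its CpG count was over 0.6 of that expected from its bases. It was so in 9.57% of the members (282, Wilson 95% interval 8.56 to 10.7%), in 1.9% of other distal intervals and in 79.7% of start-site intervals open in all 9. The share fell with distance, from 26.6% of members at 1 to 2 kb from a start site and 12.5% at 2 to 5 kb to 3.57% at 50 to 100 kb and to 0 of 35 members further out. The median GC content was 50.33% in members, 47.33% in other distal intervals and 64.67% at start sites. The median ratio of observed to expected CpG was 0.1965 in distal intervals open in 1 library. It was 0.2497 at 7 libraries, 0.2673 at 8 and 0.2952 in members, so the sets nearest to the members differed from them less. A start site lay inside 3.33% of members and 0.128% of other distal intervals, and its part in these shares was not tested. Intervals of every share in this text cover counting error only, and regions are not replicates, so no test was made on them.

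The CTCF core stood at nearly the same pooled share in the constitutive distal intervals and in the other distal intervals. It was found in 260 members (8.83%, interval 7.85 to 9.9%), in 8.84% of distal intervals open in 1 to 8 libraries and in 3.57% of start-site intervals open in all 9. Between these ends the share was uneven, at 10.1% for 1 library, 6.96% for 2, 12.8% for 7 and 12.6% for 8. Members have stronger peaks than the others, and at like strength the shares differed. When the distal intervals open in a library were divided into 4 equal classes by score, the core was more frequent in members than in the others in all 9 libraries in both higher classes, at 4.36 to 5.99% against 2.12 to 3.98% in the highest. It was so in 8 libraries in the class below and in 5 in the lowest. The core lay near the middle of the accessible stretch. Of the 459 cores within 500 bp of a centre in members, 52.1% were within 100 bp of it, against 60.0% in other distal intervals and 26.8% at start sites. The 260 members were split evenly by the strand of the core, 129 on plus and 131 on minus, and of 240 neighbouring pairs 60 pointed towards each other, 60 away from each other and 120 the same way.

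**Figure D2:**
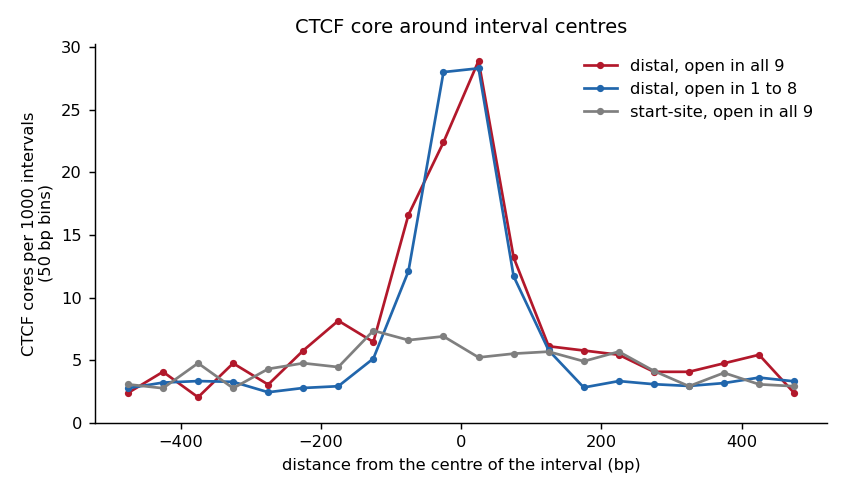
Number of CTCF cores per 1000 intervals (vertical axis) in bins of 50 bp by distance from the centre of the accessible stretch (horizontal axis, bp), for constitutive distal intervals, other distal intervals and start-site intervals open in all 9 libraries. The cores of both distal sets gathered within 100 bp of the centre, where 52.1% of the members' cores lay, and the start-site set rose less towards it, with 26.8% of its cores there.

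The words of lymphoid factors were common in the members. Both strands of the 300 bp window were searched for exact letters, and a match is a description of sequence, not a bound site. A Runx word (TGTGGT or TGCGGT) stood in 46.7% of members, 41.4% of other distal intervals and 23.3% of start-site intervals. The E-box words CAGCTG or CAGGTG stood in 40.8%, 38.0% and 30.0%, the AP-1 word TGANTCA in 12.8%, 11.3% and 3.82%, the PU.1 word in 10.8%, 8.68% and 3.31%, and the ETS word ACAGGAAG, added after the data were seen, in 13.9%, 11.6% and 4.02%. All 5 were more frequent in members than in the other distal intervals pooled, but for 3 of them some set open in fewer libraries reached a higher share. The Runx word stood in 49.0% of distal intervals open in exactly 5 libraries, the E-boxes in 41.2% of those open in 7 and ACAGGAAG in 14.8% of those open in 6. At like strength the Runx word leaned both ways. In the highest of the 4 score classes it was more frequent in members than in the others in 4 libraries, and in both ILCP libraries it was less frequent in members in all 4 classes, at 49.0% and 50.3% against 67.1% and 66.5% in the highest.

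The words of TCF/LEF and GATA factors, which guide T cell and innate lymphoid fates, ran the other way. TTCAAAG stood in 7.74% of members and 10.3% of other distal intervals, and the GATA word AGATAA in 12.8% and 16.9%. Promoter words were more frequent in members than in other distal intervals and rarer than at start sites. The SP word GGGCGGGG stood in 6.72%, 2.72% and 33.8%, the NFY word CCAATCA in 4.75%, 2.91% and 12.9%, the CRE word in 1.22%, 0.428% and 3.71%, the USF word CACGTG in 6.96%, 5.48% and 9.91%, the NRF1 word GCGCATGCG in 0.272%, 0.138% and 3.19%, and the ETS word CCGGAAGT in 1.39%, 0.639% and 8.58%. The remaining 3 words were at similar shares in both distal sets, with the IRF word GAAANNGAA in 13.2% and 12.7%, the YY1 word AAGATGGC in 1.26% and 1.58% and the HNF1 word GTTAATNAT, of a factor of other tissues, in 0.407% and 0.528%. The words CAGGTG and the CTCF core can overlap, as they do in the Cct5 and Acss1 sequences above. The 3 ETS-family words differ in the bases before GGAA and cannot share 1 site.

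The strength of a peak was read as its rank. Scores cannot be compared between libraries whose own depths are unknown, so the highest peak score of an interval was ranked within each library among the 9464 intervals open in all 9 and is given as a percentile from 0 to 100. On this scale the median member stood between 24.1 (CD4SP replicate 2) and 36.7 (ILCP replicate 2), below the middle in every library, with start-site intervals making up the upper part. Among all peaks of its library, the median member stood at percentile 55.6 to 76.3, against 34.1 to 36.3 for other distal peaks, a gap that the rule itself favours. The score 3100 was shared by 55 to 1163 of the 9464 intervals of a library, which gave all of them 1 percentile, from 92.9 in CLP replicate 2 to 99.6 in CLP replicate 1 and ILCP replicate 2.

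Members with the CTCF core had weaker peaks than the others in all 9 libraries. Their median percentile ran from 10.9 to 25.5, against 25.7 to 38.0 for members without it. In CD4SP replicates 1 and 2 it was 14.1 and 12.3 against 32.5 and 25.7, and in NKT it was 14.2 and 12 against 37.4 and 26.3. In CLP it was 19, 11.5 and 10.9 against 37.2, 34.2 and 34.6, and in ILCP it was 20.1 and 25.5 against 37.7 and 38.0. The gap was narrowest in ILCP replicate 2. When members were divided into 4 equal sets by their mean percentile over libraries, 20.9% of the weakest set held the core and 2.58% of the strongest. CpG-rich members were the strongest class, with medians from 40.3 to 44.4. They made up 7.46% of the weakest set and 14.8% of the strongest. Members with the core were also narrower, with a median width of 1195 bp against 1524 bp, lay more often between genes (58.1% against 41.7%) and held fewer Runx words (31.5% against 48.2%) and PU.1 words (3.08% against 11.6%).

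**Figure D3:**
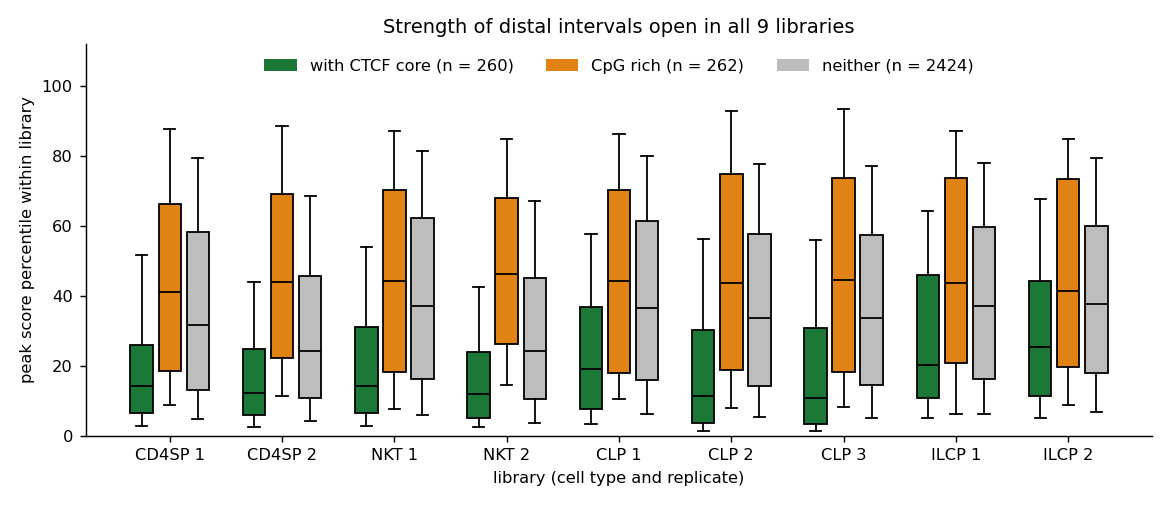
Peak score percentile of the constitutive distal intervals (vertical axis) in each library (horizontal axis), for intervals with the CTCF core, CpG-rich intervals without it and intervals with neither. Boxes span the quartiles with the median as a line, and whiskers run from the 10th to the 90th percentile of the intervals. Intervals with the core lie lowest in all 9 libraries, with medians between 10.9 and 25.5.

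The strongest and weakest members had little in common. The 5 with the highest mean percentile were at Hjurp, a histone chaperone of centromeres, the pair at Sfi1, Gm21738 and Gm10801. All 5 were at the shared score in all 9 libraries, so they could not be ordered, and each held 1 to 6 annotated start sites away from its midpoint. Repeated sequence made up 60.2% and 57% of the 50 bp words of the pair at Sfi1, 31.9% at Gm10801, 19.5% at Gm21738 and 0% at Hjurp. The 5 with the lowest were nearest to Ipcef1 (mean percentile 2.19), Gm26069 (2.26), Gm14856 (2.29), Gm37007 (2.38) and Gm8557 (2.67). Of these, the interval of Gm26069 held the CTCF core printed above, and its percentiles ran from 0.0053 in CLP replicate 2 to 6.75 in ILCP replicate 2.

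Although open everywhere, the members were ranked less alike between the tissues than within them. Spearman's rank correlation of the members' percentiles was 0.912 between the CD4SP libraries, 0.882 between the NKT libraries and 0.869 between the ILCP libraries. Among the CLP libraries it was 0.968 between replicates 2 and 3 and 0.77 and 0.776 between each of them and replicate 1. It ran from 0.769 to 0.834 between CD4SP and NKT and from 0.505 to 0.514 between CLP and ILCP. Across tissues, NKT libraries correlated with ILCP libraries at 0.423 to 0.457, whereas CD4SP libraries did so at 0.289 to 0.31. These are correlations over 2946 regions of the same libraries, which are not independent replicates, and they are given as a description.

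For the comparisons, percentiles were turned into normal scores, so that a difference of 1 is 1 SD of the intervals of a library, and fitted with limma across all 9464 intervals, with Benjamini-Hochberg adjustment over all of them and a threshold of 0.05. A positive difference means that the interval ranked higher in the first-named cells. It does not show that the interval was more open in absolute terms. Nothing in the labels says that replicates came from separate animals, though the study describes its profiles as biological replicates, so p-values measure the spread between these libraries.

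NKT and CD4SP thymocytes, compared to find what accompanies PLZF in T cells, differed at few constitutive distal intervals. In NKT, 12 members ranked higher and 3 lower, which is 0.407% and 0.102% of members, against 0.254% and 0.0423% of all 9464 intervals (15 in all, 0.509% against 0.296%). The groups did not overlap in 678 members ranked higher and 565 ranked lower, against 18.7% and 19.9% of all intervals. The median difference was 0.01 over members and -0.00 over all intervals. None of the 260 members with the CTCF core was among the 15, while 476 members had an unadjusted p under 0.05. The call was fragile, since no member passed when CD4SP replicate 2, NKT replicate 1 or either ILCP library was left out, with 396, 380, 447 and 447 members still under an unadjusted 0.05. It was 6 without CD4SP replicate 1, CLP replicate 2 or CLP replicate 3, 32 without CLP replicate 1, 0 with percentiles among all peaks (344 unadjusted) and 0 with replicate number as a block (471 unadjusted).

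The interval with the largest rise in NKT lay between genes, nearest to the pseudogene Gm44879 (chr7:77131527-77134219). Its percentiles were 4.72 and 3.51 in CD4SP, 93.2 and 62.7 in NKT, 92.9, 92.9 and 93.4 in CLP and 99.5 and 100 in ILCP. It was low in CD4SP alone, and NKT exceeded CD4SP by 2.65 ± 0.4 (SE, limma adjusted p = 0.0433). The CpG-rich interval 2.23 kb upstream of Mir125b-2, in an intron of its host transcript Mir99ahg (chr16:77642922-77645170), had 2.25 and 0.0792 in CD4SP, 54.1 and 48.3 in NKT, 51.8 to 69.8 in CLP and 76.6 and 79.8 in ILCP. Mir125b is a microRNA known for holding haematopoietic cells at early stages. The difference was 2.61 ± 0.35 (adjusted p = 0.0266). These members were lowest in CD4SP among the 4 cell types. The call of Gm44879 passed under 4 of 14 alternatives and that of Mir125b-2 under 8 of 15.

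The interval near Ube2e3, a ubiquitin-conjugating enzyme, was low in CD4SP and CLP and high in NKT and ILCP (chr2:78859389-78860896). It stood at 8.53 and 6.88 in CD4SP, 69.2 and 62.4 in NKT, 11.2, 6.63 and 10.7 in CLP and 77.6 and 78.3 in ILCP. It ranked higher in NKT by 1.84 ± 0.21 (adjusted p = 0.0175) and in ILCP by 2.09 ± 0.2 (limma adjusted p = 0.000994). So did the interval in an intron of Unc5c, a netrin receptor, which rose by 2.19 ± 0.35 in NKT (adjusted p = 0.0433) and by 1.5 ± 0.32 in ILCP (adjusted p = 0.0208), though its CLP values of 39.5 to 44.6 were not low. Of the 10 named intervals higher in NKT, the one at Sec16b (1.28 ± 0.26, adjusted p = 0.0178) and the one near Gm44879 (1.62 ± 0.36, adjusted p = 0.0265) also ranked higher in ILCP than in CLP by the limma fit, and the remaining 6 did not pass there. At Gm44879, CLP replicates 2 and 3 and ILCP replicate 1 stood at the shared score. These 3 values differ only by how many intervals share or exceed that score in each library. Apart from those of Gm44879, Mir125b-2, Ube2e3 and Unc5c, the named intervals higher in NKT were nearest to Gm14258, Sec16b, Gm49220, Rbm6-ps2, Gm38991 and Gm4821, and their differences lay between 1.76 and 2.26. Against CD4SP, the calls of Ube2e3, Gm14258 and Gm49220 passed under 8 of 15 alternatives and that of Sec16b under 7 of 15. That of Gm4821 passed under 6 of 15, and those of Unc5c, Rbm6-ps2 and Gm38991 under 5 of 15.

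The 3 members lower in NKT were nearest to Gm26535, Gm45336 and Gm15239, which lies in an intron of Prps2, an enzyme of nucleotide synthesis. The Gm26535 interval (chr10:37320485-37322054) had 42.3 and 27.8 in CD4SP, 0.0475 and 0.565 in NKT, 65.6 to 84.1 in CLP and 19.7 and 14.1 in ILCP. Its difference was -2.53 ± 0.32 (adjusted p = 0.0263), and it ranked lower in ILCP than in CLP as well, by -1.6 ± 0.29 (adjusted p = 0.0125). The Gm45336 interval went in opposite directions in the 2 organs. It had 31.8 and 27.7 in CD4SP, 3.05 and 0.766 in NKT, 10.8 to 15.9 in CLP and 51.1 and 60.8 in ILCP. The call between NKT and CD4SP passed under 8 of 15 alternatives at Gm26535, 3 of 15 at Gm45336 and 2 of 15 at Gm15239.

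ILCP and CLP, compared for the step from a common lymphoid to an innate lymphoid precursor, differed at far more members. In ILCP, 315 members ranked higher and 237 lower, or 10.7% and 8.04%, against 4.41% and 4.32% of all 9464 intervals (552 in all, 18.7% against 8.73%) and 1.56% and 2.64% of start-site intervals. The groups did not overlap in 925 members ranked higher and 740 ranked lower, against 24.1% and 20.9% of all intervals. The median difference was 0.11 over members and 0.04 over all intervals. Of members with the CTCF core 16.2% were called, of those without it 19% and of CpG-rich ones 8.51%. The balance of the counts depended on the scale, which moved all intervals as well. With percentiles among all peaks of a library 53 ranked higher and 177 lower. The median was then -0.13 over members and -0.15 over all intervals, so members stood slightly above all intervals on both scales. The count moved to 868 without CLP replicate 1 and to 271, 249, 149 and 163 without CLP replicate 2, CLP replicate 3, ILCP replicate 1 and ILCP replicate 2. Without ILCP replicate 1, 70 ranked higher and 79 lower, and without ILCP replicate 2, 73 and 90. The count was 319 with all merged intervals tested (155 higher, 164 lower) and 315 with replicate number as a block.

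The largest difference was in an intron of Tnfrsf1b, the gene of TNF receptor 2 (chr4:145235473-145237061, window printed above). Its percentiles were 4.23, 9.88 and 16.0 in CLP, 100 and 99.1 in ILCP, 71.7 and 68.1 in CD4SP and 97 and 91.3 in NKT. It was near the bottom in CLP and near the top in ILCP, with a difference of 4.25 ± 0.35 (SE, limma adjusted p = 0.000554). The interval 157 kb upstream of Irx1, a homeobox gene (chr13:72120099-72121620), was high in ILCP alone. It stood at 98.1 and 98.5 in ILCP, 0.866, 6.11 and 3.57 in CLP, 9.13 and 6.8 in CD4SP and 2.65 and 2.17 in NKT, and the difference was 4.04 ± 0.25 (adjusted p = 0.000254). In contrast, the interval nearest to the small nuclear RNA Gm26026 (chr19:14694856-14696312) was low in CLP alone, with 8.32, 1.79 and 7.72 there, 96.0 and 94.8 in ILCP, 96.6 and 90.8 in CD4SP and 96.9 and 89.0 in NKT. ILCP exceeded CLP by 3.32 ± 0.3 (adjusted p = 0.000968).

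The other 7 named members higher in ILCP, nearest to Gm43446, Gm20091, Gm49236, Gm14254, Rpl21-ps7, Gm47552 and Dcp2, an mRNA decapping enzyme, exceeded CLP by 2.62 to 3.01. Of these 10 members, 3 were intronic and 7 intergenic, and that of Dcp2 held a CTCF core. The call of Gm47552 (2.72 ± 0.57, adjusted p = 0.0204) passed under 11 of 15 alternatives and that of Gm49236 (2.86 ± 0.51, adjusted p = 0.012) under 12 of 15.

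On the CLP side, the clearest differences were in an intron of Gm36640 near Gm44275 (chr6:135322655-135325677, window printed above) and in an intron of BC034090 (chr1:155221957-155224999). The Gm44275 interval had 80.4, 77.2 and 74.5 in CLP, 0.322 and 1.7 in ILCP, 8.39 and 14.6 in CD4SP and 49.4 and 29.5 in NKT. It was high in CLP and at the bottom in ILCP, by -3.18 ± 0.26 (adjusted p = 0.000554). The BC034090 interval had 61.2, 75 and 77.3 in CLP, 0.544 and 0.528 in ILCP, 42.4 and 35.7 in CD4SP and 50.2 and 42.0 in NKT. It was near the bottom in ILCP alone, with a difference of -3.12 ± 0.21 (adjusted p = 0.000272).

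The interval in an intron of Poc1b (chr10:99129936-99133203, window printed above) was high in CLP alone. It stood at 78.4, 92.9 and 93.4 in CLP, 14.3 and 10.2 in ILCP, 30.9 and 22.5 in CD4SP and 11.6 and 7.76 in NKT, where the values of CLP replicates 2 and 3 are those of the shared score. ILCP was lower by -2.42 ± 0.26 (adjusted p = 0.0016). The largest fitted difference on this side, -3.31 ± 0.67 in an intron of the uridine kinase gene Uck2 (adjusted p = 0.018), rested on unequal CLP values of 47.7, 99.4 and 99.2 against 5.53 and 3.63 in ILCP, and passed under 9 of 14 alternatives. Abi3, an actin regulator of blood cells, Wwox, Gm37191, Gm3150, Tespa1, a signalling protein of thymocytes, and B4galt1 made up the rest, with differences from -2.8 to -2.43. Of these, Gm3150 and Tespa1 passed under 8 and 12 of 14 alternatives.

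The members that ranked higher in ILCP and those that ranked higher in CLP held several words at different shares. The GATA word stood in 20% of the 315 higher in ILCP (Wilson 95% interval 16.0 to 24.8%), in 9.7% of the 237 higher in CLP (6.55 to 14.1%) and in 12.2% of the 2394 not called. The TCF/LEF word stood in 11.7% (8.64 to 15.8%), 5.06% (2.92 to 8.64%) and 7.48%, and the CTCF core in 10.8%, 3.38% and 9.11%. GATA3 and TCF-1, encoded by Tcf7, are factors of early innate lymphoid development. The Runx word was at 54.3%, 46.0% and 45.8%, and the AP-1 word at 16.5%, 9.7% and 12.6%.

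The PU.1 word and the E-boxes leaned to CLP. The PU.1 word stood in 6.98% of members higher in ILCP (4.66 to 10.3%), 14.8% of those higher in CLP (10.8 to 19.9%) and 10.9% of those not called, and the E-boxes in 38.7%, 48.9% and 40.2%. CpG-rich members made up 2.86% of the ILCP-higher and 6.33% of the CLP-higher ones, against 10.8% of those not called. Without CLP replicate 1 these shares were 5.72%, 9.82% and 10.5%. With all libraries in the fit, the SP word was at 2.54%, 5.91% and 7.35%. GC content, which alone can shift the share of a word, had a median of 48.3% in those higher in ILCP, 51.7% in those higher in CLP and 50.3% in the rest, and its part was not tested. Across 15 alternatives to the fit, the share in ILCP-higher members exceeded that in CLP-higher ones in 15 for Runx, GATA, TCF/LEF and CTCF, in 14 for AP-1 and in 0 for PU.1 and the E-boxes. The sizes moved more than this tally shows. With percentiles among all peaks of a library, where 53 members were ILCP-higher and 177 CLP-higher, the TCF/LEF share was 5.66% against 5.08% and the GATA share 11.3% against 6.21%. Without CLP replicate 2 the Runx share was 52.6% against 52.1%. Many of these alternatives reuse the same libraries and are not independent of each other. For ILCP and CLP, leaving out either CD4SP library gave the same result, as did leaving out either NKT library, so the tallies count these fits more than once.

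**Figure D4:**
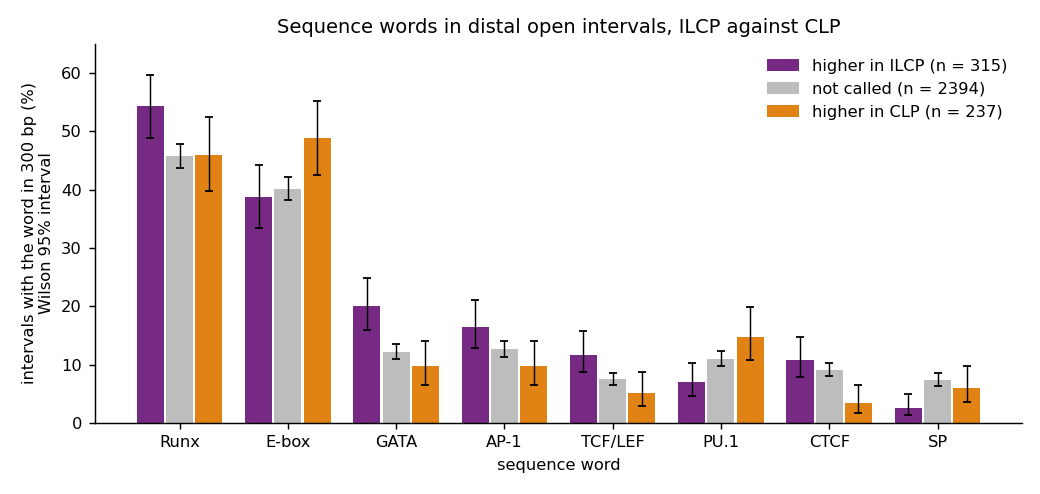
Percent of constitutive distal intervals whose 300 bp window held each word (vertical axis, with Wilson 95% intervals), by word (horizontal axis), for intervals that ranked higher in ILCP, higher in CLP or were not called. The GATA word stood in 20% of ILCP-higher and 9.7% of CLP-higher intervals, and the PU.1 word in 6.98% and 14.8%.

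Thymic and marrow libraries, which differ in organ and in stage, were the most distinct. In the thymus, 576 members ranked higher and 891 lower, or 19.6% and 30.2%, against 25.2% and 24.4% of all 9464 intervals. The members were therefore called about as often as all intervals (49.8% against 49.6%) but leaned to the marrow, with a median difference of -0.14 over members and -0.00 over all intervals. All 4 thymic libraries lay above all 5 marrow libraries in 331 members and below them in 489, against 18% and 17.0% of all intervals. The counts turned with the scale, which moved all intervals as well. With percentiles among all peaks of a library, 691 members ranked higher and 455 lower in thymus. The median was then 0.12 over members and 0.2 over all intervals, so members stood below all intervals on both scales. Of members with the CTCF core 40.8% were called, against 50.7% of those without it.

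The members that ranked highest in thymus against marrow included introns of Srgap1, Dpp4, Rspry1, Itga2, Pde4d and Rora. The Srgap1 interval, nearest to Gm48804 (chr10:121885252-121887646, window printed above), had 95.2 and 84.4 in CD4SP, 94 and 71.6 in NKT, 8.94, 15 and 10.2 in CLP and 3.78 and 5.81 in ILCP. The difference was 2.65 ± 0.23 (SE, limma adjusted p = 9.38e-05). The interval in an intron of Dpp4, the T cell surface protease CD26 (chr2:62393698-62395619), had 69.0 and 53.2 in CD4SP, 77.9 and 62.7 in NKT, 0.792, 0.417 and 0.322 in CLP and 3.21 and 7.21 in ILCP. It was higher in thymus by 2.54 ± 0.18 (adjusted p = 4.63e-05). The thymic libraries lay far above all marrow libraries in both.

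The interval in an intron of Rora, a nuclear receptor required by group 2 innate lymphoid cells (chr9:69033613-69035353), was graded within the marrow as well. It stood at 90.4 and 84.2 in CD4SP, 81.2 and 75.3 in NKT, 8.14, 1.74 and 4.98 in CLP and 31.8 and 36.3 in ILCP. Thymus exceeded marrow by 2.03 ± 0.18 (adjusted p = 9.52e-05), and ILCP exceeded CLP by 1.31 ± 0.25 (adjusted p = 0.0143). The members nearest to Gm15622, Rspry1, Itga2, an integrin chain, Pde4d, a phosphodiesterase, Gm7594, Siah3 and Sp4 differed by 1.99 to 2.34.

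On the marrow side, the largest difference was at an intergenic interval nearest to the pseudogene Gm49073 (chr15:4816335-4817805). It stood at 10.3 and 1.81 in CD4SP, 3.35 and 4.72 in NKT, 97.2, 92.9 and 93.4 in CLP and 88.9 and 89.3 in ILCP, a difference of -3.15 ± 0.2 (adjusted p = 4.54e-05). The interval upstream of Sfmbt2, a Polycomb-group gene (chr2:10313938-10316641), had 15.3 and 13.1 in CD4SP, 6.97 and 2.19 in NKT, 98.4, 92.9 and 93.4 in CLP and 92.3 and 94.8 in ILCP. Its difference was -3.03 ± 0.2 (adjusted p = 4.54e-05). Both were near the bottom in all 4 thymic libraries and near the top in all 5 from marrow. In both, the values of CLP replicates 2 and 3 are those of the shared score, so the sizes and order of these differences rest partly on tied values.

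An interval in an intron of Fhit, nearest to Gm22053 (chr14:10592941-10594734), had values from 0.354 to 1.13 in the thymic libraries and from 53.4 to 70.6 in the marrow libraries, a difference of -2.8 ± 0.15 (adjusted p = 4.54e-05). The CTCF-core intervals near Cct5 and Acss1, printed above, showed that members of that class can be graded between tissues. The Cct5 interval had 6.09 and 5.01 in CD4SP, 5.31 and 0.977 in NKT, 76.6, 85.3 and 85.1 in CLP and 72.4 and 72.5 in ILCP (-2.55 ± 0.18, limma adjusted p = 4.63e-05). The Acss1 interval ran from 6.6 to 25.3 in thymus and from 73.7 to 98.5 in marrow (-2.49 ± 0.22, limma adjusted p = 9.38e-05). Both are wide, at 3682 and 4298 bp, and the peaks in them need not lie over the core. The remaining named intervals lay in introns of Gpc5, Adamts3 and the gene C18orf63, in an exon of Col14a1, and between genes near Gm48663, with differences from -2.99 to -2.46.

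Words also differed between tissues. The SP word stood in 9.72% of members higher in thymus, 4.49% of those higher in marrow and 6.9% of those not called. The USF word was at 9.55%, 4.94% and 7.17%, the NFY word at 6.6%, 3.25% and 4.94%, the IRF word at 15.6%, 10.5% and 13.9% and the ETS word ACAGGAAG at 17.5%, 12.3% and 13.5%. The Runx word leaned to the marrow, at 44.1%, 52.2% and 44.4%, as did the E-boxes, at 38.2%, 43.3% and 40.2%, and the CTCF core, at 5.56%, 8.31% and 10.4%. CpG-rich members made up 11.5%, 6.73% and 10.5%. The median GC content was 51.3% in members higher in thymus, 49.7% in those higher in marrow and 50.3% in the rest, and its part was not tested. With percentiles among all peaks, where 691 members were higher in thymus and 455 in marrow, the CTCF core leaned the other way, at 7.09% against 6.15%. The other words named here and the CpG-rich share leaned as stated in all 15 alternatives to the fit.

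**Figure D5:**
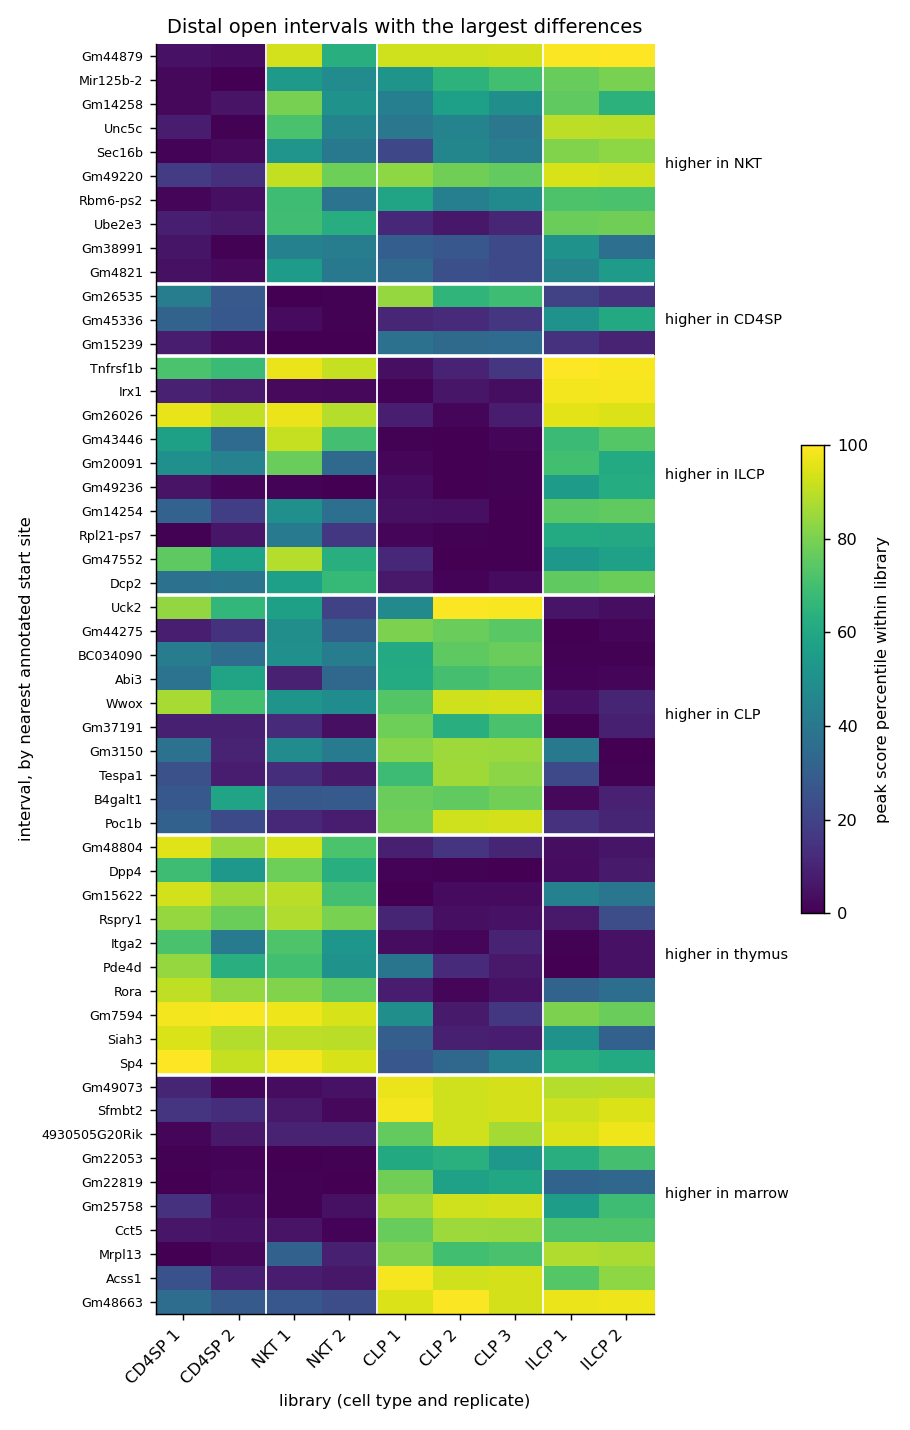
Peak score percentile (colour, 0 to 100) of the constitutive distal intervals with the largest differences in each comparison (rows of the picture, by the gene of the nearest start site) in the 9 libraries (columns). The Irx1 interval is near 98 in both ILCP libraries and under 10 in the other 7, and the marrow-higher intervals are dark in the thymic and bright in the marrow libraries.

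Members were counted within 50 kb of the genes of several lists and set beside the 5.49% of all distal intervals in the genome that were members. The calls in each list are to be read against the shares of all 9464 intervals called, which were 0.296% between NKT and CD4SP, 4.41% higher and 4.32% lower in ILCP, and 25.2% higher and 24.4% lower in thymus. With few members a list, none of these counts is read as a departure from them. Around 24 factors of T and innate lymphoid cells, 18 of 355 distal intervals were members (5.07%, Wilson 95% interval 3.23 to 7.87%), close to the share over the genome. Ikzf1 and Bach2 had 4 each, Ets1 3, and Lef1 and Sox4 2 each. The other 16 genes, Zbtb16 with its 22 distal intervals among them, had none, and the numbers for a single gene are too small to be read against that share. The strongest, at Sox4, a factor of early lymphoid cells, stood at 73.1 to 92.9 in all 9 libraries.

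Of these 18 members, 0 passed the test between NKT and CD4SP, 1 was higher and 1 lower in ILCP than in CLP, and 2 were higher and 7 lower in thymus than in marrow. Around 15 genes of progenitors, B cells and myeloid cells, 8 of 135 were members (5.93%), 5 of them near Mef2c, a factor of early B cell and myeloid differentiation. In the intron of Flt3, the CLP receptor, a member stood at 78.7, 61.0 and 73.1 in CLP and at 25.5 and 26.8 in ILCP, lower by -1.2 ± 0.21 in ILCP (limma adjusted p = 0.0111). It was at 57.6 and 59.2 in CD4SP and at 37.4 and 30.6 in NKT, where the start site of Flt3 had no peak. Of the 8, 1 was higher and 1 lower in ILCP and 1 higher and 2 lower in thymus.

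Around 19 surface and signalling genes of lymphocytes, 20 of 179 distal intervals were members (11.2%, 7.35 to 16.6%). Il2ra, a chain of the interleukin-2 receptor, had 3 of 14 and Lck, a kinase of T cell receptor signalling, 2 of 5, with 2 each near Il7r, Cxcr4 and Cd69. The interval upstream of Cxcr4, the receptor that holds progenitors in the marrow, stood at 63.8 to 92.3 across libraries. That upstream of Cd69, an early activation marker, was at 95.3 and 89.4 in CD4SP, 91.2 and 77.0 in NKT, 80.7, 42.1 and 41.9 in CLP and 67.6 and 77.9 in ILCP, and was higher in thymus by 0.87 ± 0.26 (limma adjusted p = 0.0205). Of the 20, 6 were higher and 3 lower in thymus, and 1 was higher and 2 lower in ILCP.

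In the antigen receptor loci, 4 of 25 distal intervals were members (16.0%, 6.4 to 34.6%). The interval nearest to Trbv31, between the constant genes of the TCRβ chain and that variable segment (chr6:41552905-41555679), where the TCRβ enhancer is known to lie, was among the strongest of all, at 98.3 and 95.8 in CD4SP, 99.2 and 96.9 in NKT, 98.3, 92.9 and 93.4 in CLP and 98.2 and 100 in ILCP. It was thus near the top in precursors that have no T cell receptor. The interval downstream of Trac (chr14:54226762-54228779, window printed above) had 60.1 and 81.6 in CD4SP, 60.0 and 73.2 in NKT, 68.2, 45.3 and 50 in CLP and 24.4 and 19.1 in ILCP. It was higher in thymus by 0.84 ± 0.2 (limma adjusted p = 0.00708), and ILCP lay below CLP by -0.9 ± 0.27 (adjusted p = 0.0697). The 2 members of the Igκ locus, nearest to Igkv3-1 and Gm30211, ranked higher in ILCP than in CLP by 0.95 ± 0.25 and 0.83 ± 0.22 (adjusted p = 0.0451 and 0.0458).

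The other lists held few members. There were 2 of 49 near genes of cohesin and CTCF (4.08%), 3 of 49 near imprinted and X-linked loci (6.12%), all of them within 50 kb of Igf2r, and 4 of 56 near housekeeping genes (7.14%). Of these 9 members, 0 passed the test between NKT and CD4SP or between ILCP and CLP, and in thymus 1 was higher (imprinted) and 2 lower (1 near cohesin genes and 1 near housekeeping genes). The nearest start site is a label of position, and no target gene was assigned to any interval.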

How the data were processed

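ATAC-seq peaks of 9 libraries were used. Per the study's methods, reads of 50 bp were aligned to mm10 with bowtie, with 2 mismatches allowed. The study's results name MACS for the peaks. Each library has its own deposited peak list, and whether any reads were pooled for the calling is not stated. The submitters' processing notes also name Picard and HOMER, with no versions. The deposited score of each peak, as the authors gave it, starts at 120 and has no stated definition, the peak caller's settings are not given in the sources used here, and no file gives read depth, so scores were used as ranks within a library.

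Peaks were merged at 1 bp overlap and placed on the GENCODE M21 and GRCm38.p6 annotation. The highest score of each interval was ranked within each library among the 9464 intervals open in all 9 and turned into normal scores. These were fitted by group with limma 3.58.1 in R 4.3.3 over all 9 libraries (5 residual and 4.75 prior degrees of freedom), with Benjamini-Hochberg adjustment over all 9464 intervals and a threshold of 0.05. The text names up to 10 members a direction with the largest differences among those past the threshold whose groups did not overlap, the 5 strongest, weakest and widest members, the 3 nearest to 1 kb on either side and up to 4 members a gene list with the highest mean percentile. Members and lists were chosen with earlier results of these data known. Windows of 300 bp were searched for 17 sequence features, one of them (ACAGGAAG) added after the data were seen. Shares carry Wilson 95% intervals. Repeated 50 bp words were counted in the genome and mitochondrial matches of at least 100 bp sought with blastn 2.17.0. The fit was tested on simulated data, with known shifts among 9464 intervals. Of shifts of 1 SD it recovered 0% (NKT and CD4SP), 11.5% (ILCP and CLP) and 51% (thymus and marrow), and of shifts of 2 SD 67%, 82% and 92.5%. Alternatives covered the score scale, the intervals tested, a replicate block, the rule and each library left out.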

Additional observations from a re-analysis of the deposited data

Results flagged for a closer look

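At 7 intervals the difference between NKT and CD4SP departed from that between ILCP and CLP. The limma interaction tests NKT minus CD4SP against ILCP minus CLP in SD of the normal scores, with adjustment over all 9464 intervals, and was read here only for the named intervals. No group holds enough libraries for a check of single outlying libraries.

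In 4 members, ILCP ranked higher than CLP while NKT did not exceed CD4SP by as much. The Irx1 interval had the largest departure, -4.6 (adjusted p = 0.00296), and it passed under 14 of 15 alternatives. The Gm26026 interval departed by -3.35 (adjusted p = 0.0195), past the threshold under 9 of 15, the Tnfrsf1b interval by -3.15 (adjusted p = 0.0432), under 6 of 15, and the Gm45336 interval by -2.9 (adjusted p = 0.0156), under 8 of 15. The adjusted p ran up to 0.145, 0.0978, 0.234 and 0.156 for these 4 over the alternatives.

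The Gm44275 interval departed by 4.12 (adjusted p = 0.00408), under 14 of 14 alternatives, and the BC034090 interval by 3.3 (adjusted p = 0.00408), under 12 of 14. In both, ILCP ranked below CLP and NKT did not rank below CD4SP. The interval 997 bp from Gm25888, just too close to a start site to be a member, departed by -2.69 (adjusted p = 0.0456), under 5 of 15.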

How the results depend on the processing

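The number of constitutive distal intervals followed the rule. It was 931 when peaks below the median score of their library were left out, 1501 with an equal number of peaks per library and 1504 when peaks had to cover at least 50% of the interval. It was 2679 at 2 kb, 2128 at 5 kb, 3450 with coding starts alone and, in an alternative chosen after seeing the data, 2699 with both edges beyond 1 kb. Leaving out each library gave 2953 to 4008, the highest without CLP replicate 1. The share with the CTCF core was 7.2% around the interval midpoint and 11.8% in wider windows.

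The 15 calls between NKT and CD4SP became 0 with percentiles among all peaks, 7 with the mean peak score and 38 with all merged intervals tested, and 0 to 32 with a library left out. The 552 between ILCP and CLP became 230 and 319 in the first and last of these, and 149 to 868 with a library left out. Of the 868 calls without CLP replicate 1, 535 were among the 552. The calls between thymus and marrow, 1467, stayed within 1146 and 1617 under these alternatives. The causes were not tested.

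Nothing in the labels says what a replicate number stands for. Same-numbered libraries deviated together between CD4SP and NKT (r = 0.5294, the same for both numbers by construction with 2 libraries a group), which is a hint of pairing in that comparison, and hardly elsewhere (-0.05298 to 0.1053), so the numbers were not taken to pair the samples. With a replicate block, 0 members were called between NKT and CD4SP (limma, 471 at an unadjusted p under 0.05), 315 between ILCP and CLP and 1394 between thymus and marrow.

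Of the values of named intervals under the alternatives, 20 of 290 for ILCP and CLP, 117 of 194 for NKT and CD4SP, 35 of 103 for the interaction and 0 of 296 for thymus and marrow lost the threshold, and 0 changed direction. The depth of each library is unknown, and replicates number 2 or 3 a group.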
